A study of Homo sapiens with 3 samples.

Results

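A375 is an established human melanoma cell line, and its transcriptome was measured by poly(A) RNA sequencing in 3 libraries, 1 per group. Control cells were kept for 24 h in serum-free DMEM, and the others in serum-free DMEM conditioned by adipocytes from young donors (YA-A375) or old donors (OA-A375), called secretome. The adipocytes had been differentiated in culture from human preadipocytes, and how many donors lay behind each secretome was not given in the sources used here. In the study's donor list all old donors were male, and all young donors but 1 were female. Tissue site and source also differed between most old and most young donors. Which of them were used here was not given, so donor age cannot be told apart from sex, site or source. With 1 library per group, no difference below has a replicate check and none was tested. The subject is 31 genes of cholesterol synthesis, uptake and efflux, taken by symbol from the 58037 genes of the count table. Over the 3 libraries all 31 reached a mean of 20 normalised counts, the minimum used here, as did 14413 genes in all. The list does not hold every enzyme of the pathway.

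Cells build cholesterol from acetyl-CoA through mevalonate, farnesyl diphosphate, squalene and lanosterol, and also take it up from lipoproteins. When sterols in the endoplasmic reticulum are scarce, SCAP carries the transcription factor SREBP-2, the product of SREBF2, to the Golgi, where it is released to switch on the enzymes of synthesis. When sterols are plentiful, INSIG proteins hold SCAP back, and oxysterols activate the liver X receptors (LXR), which switch on export of cholesterol. The 31 genes comprise 7 enzymes from acetyl-CoA to farnesyl diphosphate, 11 from squalene to cholesterol, 4 genes of SREBP control, 4 of intracellular transport and esterification, and 5 of LXR and efflux.

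Promoter sequence from RefSeq (GRCh38.p14), from 250 bases before to 50 bases after an annotated start, was at hand for 27 of the 31 genes in 37 windows. ACAT2, FDFT1, SQLE and ABCG1 had no window. The windows were searched on both strands for the core of the sterol response element, CACCCCAC, for its looser form CACNCCAC, which takes in the stricter core, for the NF-Y box CCAAT and for the GC box GGGCGG. The strict core was found in the windows of SREBF2 and ABCA1, 2 of 27 genes (7.41%). It was held by 3.39% of the 27305 genes with windows and by 3.61% of the 10036 such genes past the count minimum. The looser form was found also in the windows of INSIG1, IDI1 and SC5D. With these it was held by 5 of 27 genes (18.5%), beside 7.05% of all genes and 7.91% of those past the minimum. Of the 15 synthesis enzymes with a window, 0 held the strict core and 2 (13.3%) the looser form. A CCAAT box was found in 20 of 27 members (74.1%), beside 39.7% of all genes and 43.7% of those past the minimum. Among the 15 synthesis enzymes with a window it was found in 13 (86.7%). By window, CCAAT was held by 15 of 20 for the enzymes (75.0%) and by 34.6% of all 35116 windows. A GC box was held by 26 of 27 members (96.3%), 48.3% of all genes and 76.8% of those past the minimum. No window of a member held the LXR element, read as AGGTCA repeated with a gap of 4 bases and up to 1 mismatch, and 0.264% of all genes did. These matches describe letters in a window and are not shown to be bound in these cells.

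The windows of the members with a core of either form are printed so that core and CCAAT boxes can be read together, and those of HMGCS1 and MSMO1 were added after values had been seen, because they were furthest below control in OA among the members with a window. SC5D and HMGCS1 each have 2 windows and IDI1 has 3, for different annotated starts, and 1 of each is shown. Capitals of 8 letters mark the core, or in IDI1 also 2 overlapping CCAAT boxes, and capitals of 5 letters mark single CCAAT boxes, each read as printed or on the opposite strand. SREBF2 lies at chr22:41832855-41833154 (plus strand), INSIG1 at chr7:155297628-155297927 (plus), IDI1 at chr10:1048837-1049136 (minus), SC5D at chr11:121292602-121292901 (plus), ABCA1 at chr9:104928106-104928405 (minus), HMGCS1 at chr5:43313363-43313662 (minus) and MSMO1 at chr4:165327419-165327718 (plus). Each reads 5′ to 3′ on the strand of its gene.
SREBF2: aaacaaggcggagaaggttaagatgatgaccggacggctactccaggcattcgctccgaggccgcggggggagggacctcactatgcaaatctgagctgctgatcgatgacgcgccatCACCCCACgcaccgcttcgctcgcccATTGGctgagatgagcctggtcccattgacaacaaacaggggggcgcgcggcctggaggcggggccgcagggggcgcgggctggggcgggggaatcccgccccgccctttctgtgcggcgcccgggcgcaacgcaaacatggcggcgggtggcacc
INSIG1: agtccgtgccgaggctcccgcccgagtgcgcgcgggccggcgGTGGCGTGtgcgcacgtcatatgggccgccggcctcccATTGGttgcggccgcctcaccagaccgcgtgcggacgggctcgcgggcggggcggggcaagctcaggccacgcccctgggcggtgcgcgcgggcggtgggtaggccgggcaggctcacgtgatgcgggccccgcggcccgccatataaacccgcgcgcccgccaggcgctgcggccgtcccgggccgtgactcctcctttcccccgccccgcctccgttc
IDI1: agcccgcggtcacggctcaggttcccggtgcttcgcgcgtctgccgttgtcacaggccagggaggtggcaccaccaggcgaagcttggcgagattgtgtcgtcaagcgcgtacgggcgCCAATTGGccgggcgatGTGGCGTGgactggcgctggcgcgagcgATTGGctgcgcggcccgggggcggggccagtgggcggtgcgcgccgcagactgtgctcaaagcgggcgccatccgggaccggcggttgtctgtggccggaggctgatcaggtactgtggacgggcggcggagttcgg
SC5D: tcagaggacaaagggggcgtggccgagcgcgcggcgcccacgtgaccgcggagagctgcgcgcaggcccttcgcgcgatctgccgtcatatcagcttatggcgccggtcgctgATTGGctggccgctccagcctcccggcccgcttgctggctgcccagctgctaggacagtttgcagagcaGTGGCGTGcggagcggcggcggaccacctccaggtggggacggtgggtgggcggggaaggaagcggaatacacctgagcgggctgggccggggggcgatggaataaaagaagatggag
ABCA1: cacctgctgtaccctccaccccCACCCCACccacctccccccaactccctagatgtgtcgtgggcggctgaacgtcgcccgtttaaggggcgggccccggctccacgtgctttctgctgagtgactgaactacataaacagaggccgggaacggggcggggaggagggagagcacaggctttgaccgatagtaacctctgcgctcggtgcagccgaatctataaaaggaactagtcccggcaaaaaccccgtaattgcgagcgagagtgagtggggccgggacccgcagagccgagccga
HMGCS1: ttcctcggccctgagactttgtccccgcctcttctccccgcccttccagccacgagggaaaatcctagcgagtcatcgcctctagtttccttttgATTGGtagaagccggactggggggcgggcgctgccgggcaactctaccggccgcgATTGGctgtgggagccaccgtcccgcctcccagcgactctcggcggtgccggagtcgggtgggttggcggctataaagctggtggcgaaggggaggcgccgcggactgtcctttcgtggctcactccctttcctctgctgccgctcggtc
MSMO1: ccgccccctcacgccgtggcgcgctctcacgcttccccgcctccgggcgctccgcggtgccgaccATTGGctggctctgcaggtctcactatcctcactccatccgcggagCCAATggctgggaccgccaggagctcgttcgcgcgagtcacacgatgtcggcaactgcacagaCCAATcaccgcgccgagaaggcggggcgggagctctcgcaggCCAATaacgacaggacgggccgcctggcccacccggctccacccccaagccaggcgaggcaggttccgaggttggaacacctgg

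Positions are counted from the annotated start that each printed window spans. In SREBF2 the core began 132 bases before the start and the CCAAT box, on the opposite strand, 106 bases before it. In IDI1 the core began 115 bases before the start, between the overlapping CCAAT boxes at 132 and 129 bases and another at 87 bases. In INSIG1 the core began at 208 bases and a CCAAT box at 170. ABCA1 held the core at 228 bases and no CCAAT box, and HMGCS1 held CCAAT boxes at 155 and 100 bases without a core in this window. As described below, SREBF2, INSIG1, IDI1 and SC5D were lower in OA-A375 than in control, and ABCA1, which held the strict core, was higher. HMGCS1 and MSMO1, printed without a core, were lower too, but they had been chosen for that. A link between matches and changes was not tested.

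Total counts were 18089008 to 21448195 per library. Counts of single genes are given as deposited, and OA was the shallowest library. Normalised counts are those counts divided by DESeq2 size factors, and a fold change is the ratio of normalised counts after adding 1, with a 95% Clopper-Pearson interval that covers counting error only and compares libraries, not conditions. A gene at least 1.2-fold apart is called higher or lower, and its interval may also lie wholly beyond 1.2-fold. The study's methods name 1.2 for the upregulated genes of their pathway analysis, without giving its scale. Here 1.2 was used as a fold in both directions. Of the 8 melanoma and melanocyte markers, SOX10 was at 0 counts in the 3 libraries, TYR at 0 to 2 and DCT at 1 to 2. PMEL had 2 to 10, S100A1 15 to 30, MLANA 16 to 22, S100B 550 to 843 and MITF 764 to 1221. Several genes of the pigment lineage were thus at or near 0. These 8 summed to normalised counts of 1989 (control), 1336 (YA) and 1655 (OA). Of the 3 past the minimum, MITF and S100B were called lower in YA than in control and S100A1 higher. The shares of all genes were 16.4% and 17.4%. In OA 1 was lower, S100B, and 0 higher, beside 21.5% and 21.1%. Of the 8 adipocyte markers, LEP was at 0 in the 3 libraries, ADIPOQ at 0 or 1, PLIN1 at 2 to 5 and FABP4 at 2 to 16. PPARG had 1530 to 1964 counts, PLIN4 284 to 579, LPL 30 to 583 and CIDEC 6 to 36. The list summed to normalised counts of 2139 (control), 3003 (YA) and 2156 (OA). Its 4 genes past the minimum were all called higher in YA than in control, beside 17.4% of all genes. In OA 2 of them were higher and 1 lower, beside 21.1% and 21.5%. The 7 fibroblast and preadipocyte markers summed to 703, 894 and 622, with COL3A1 at 0 or 1 counts and COL1A2 at 1 or 2. PDGFRB had 334 to 568 counts, COL1A1 75 to 117, LUM 58 to 101, PDGFRA 20 to 76 and DCN 13 to 138. Of the 5 past the minimum, 3 were called higher and 1 lower in YA than in control, beside 17.4% and 16.4% of all genes. In OA 2 were higher and 2 lower, beside 21.1% and 21.5%. The part of other cell types in the results was not tested.

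The main question was how the genes of cholesterol synthesis stood after each secretome. They were lower in OA-A375 at nearly every step and near control in YA-A375. The 18 synthesis enzymes together took a share of all counts of 0.144% (control, Wilson interval 0.142 to 0.145), 0.153% (YA, interval 0.152 to 0.155) and 0.0840% (OA, interval 0.0827 to 0.0853). In OA against control 17 of the 18 were called lower and none higher, with a median log2 fold change of -0.75, beside 0.01 over all genes tested. Of all 31 members 22 were lower (71.0%) and 2 higher, where 21.5% of all genes were lower and 21.1% higher. The interval lay wholly beyond 1.2-fold for 17 lower members and for 2 higher ones, beside 9.08% and 9.04% of all genes.

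**Figure D1:**
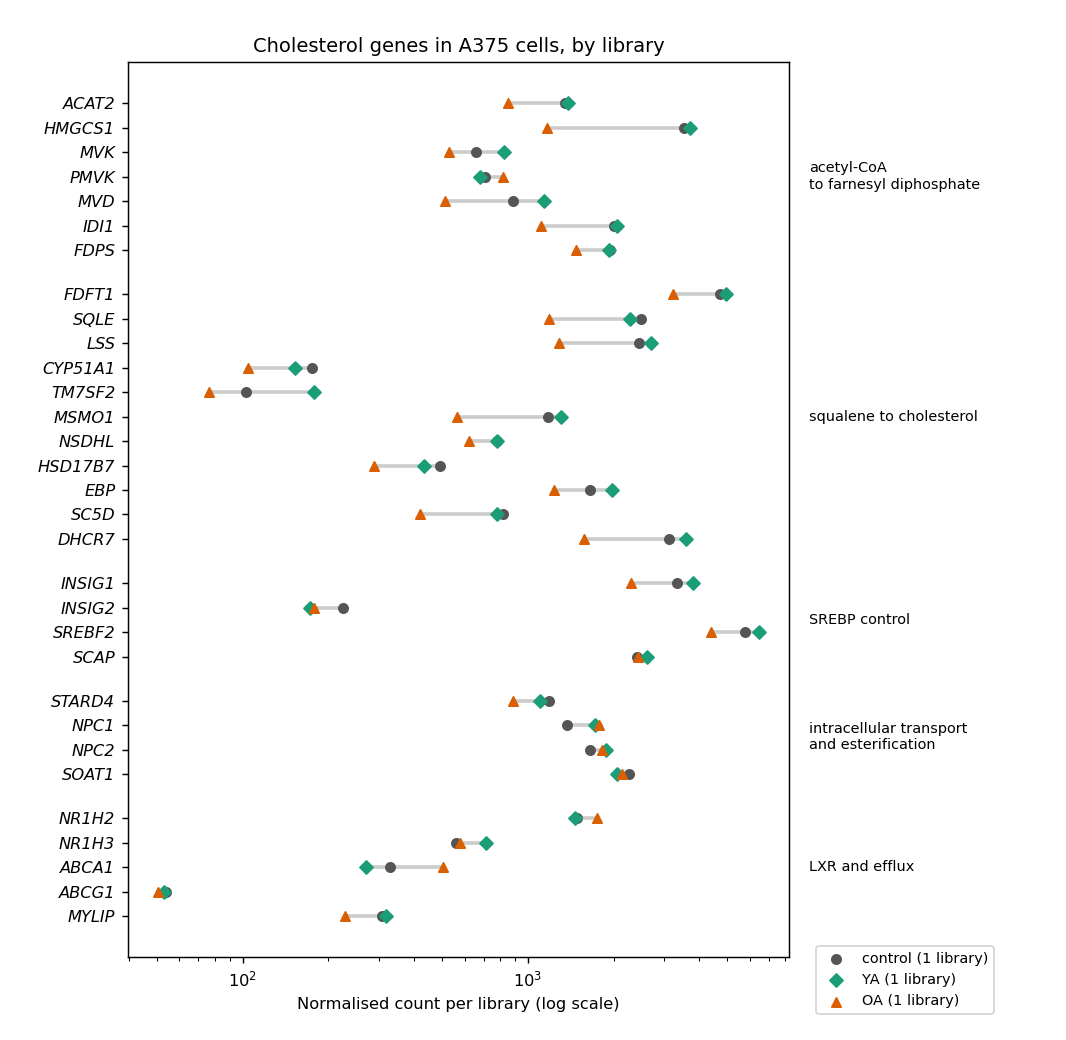
Normalised count of each of the 31 genes (horizontal axis, log scale) in the control, YA and OA libraries, 1 library each, grouped by role. The OA triangle lies to the left of the other 2 symbols in 17 of the 18 synthesis enzymes, with PMVK as the exception, and to the right of them in ABCA1.

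The first reactions condense acetyl-CoA into mevalonate precursors. ACAT2, the cytosolic thiolase, had 1436 counts in the control library, 1460 under YA and 760 under OA. Control and YA lay close together, and OA was 1.59-fold lower (1.45 to 1.73) than control. HMGCS1, the HMG-CoA synthase, had 3760, 3924 and 1043 counts in the same order. It was 3.02-fold lower (2.82 to 3.24) in OA than in control, the largest fold change among the 31 genes in this comparison, and 1.05-fold of control (1.00 to 1.09) in YA. HMGCS1 lies at chr5:43289395-43313512 on GRCh38.

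The next enzymes phosphorylate and decarboxylate mevalonate. MVK, mevalonate kinase, had 699 counts in the control library, 873 under YA and 471 under OA. MVD, the decarboxylase, had 942, 1208 and 457 counts. Both were highest in YA and lowest in OA. MVD was 1.29-fold higher (1.18 to 1.40) in YA than in control and 1.73-fold lower (1.55 to 1.94) in OA. MVK was 1.25-fold higher (1.13 to 1.39) in YA and 1.25-fold lower (1.11 to 1.40) in OA, so neither of its intervals lay wholly beyond 1.2-fold. PMVK, phosphomevalonate kinase, was the synthesis enzyme that did not follow. It had 749, 719 and 730 counts and was 1.16-fold of control (1.05 to 1.29) in OA. IDI1, the isomerase that makes dimethylallyl diphosphate, had 2126, 2172 and 988 counts and was 1.81-fold lower (1.67 to 1.95) in OA than in control. FDPS, which makes farnesyl diphosphate, had 2062, 2045 and 1313 counts and was 1.32-fold lower (1.23 to 1.41).

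All 11 enzymes from squalene to cholesterol were past the threshold on the lower side in OA against control, with a median log2 fold change of -0.76, and 9 of the intervals lay wholly beyond 1.2-fold. FDFT1, squalene synthase, had 5004 counts in the control library, 5250 under YA and 2875 under OA, and was 1.46-fold lower (1.40 to 1.53) in OA. SQLE, squalene epoxidase, a rate-controlling enzyme of the pathway, had 2642, 2419 and 1054 counts and was 2.10-fold lower (1.96 to 2.26) in OA. LSS, lanosterol synthase, had 2607, 2872 and 1145 counts and was 1.91-fold lower (1.78 to 2.05). For these enzymes YA and control were closer to each other than either was to OA.

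Among the enzymes that trim lanosterol, MSMO1, a methylsterol monooxygenase, had 1253 counts in the control library, 1382 under YA and 504 under OA, which was 2.09-fold lower (1.88 to 2.32) in OA than in control. SC5D, a sterol desaturase, had 872, 828 and 374 counts and was 1.95-fold lower (1.73 to 2.22). DHCR7, the reductase that makes cholesterol from its dehydro precursor, had 3315, 3791 and 1405 counts and was 1.98-fold lower (1.86 to 2.11). With HMGCS1 and SQLE these were the enzymes furthest below control. NSDHL and EBP, which act on sterol intermediates, were nearer to it, NSDHL 1.25-fold lower (1.12 to 1.39) and EBP 1.34-fold lower (1.24 to 1.44) in OA. HSD17B7, a reductase of the same stretch, had 523, 459 and 258 counts and was 1.70-fold lower (1.46 to 1.98).

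The sterol reductase TM7SF2 and the demethylase CYP51A1 were the least counted enzymes. TM7SF2 had 109 counts in the control library, 188 under YA and 68 under OA. It was the member furthest above control in YA, 1.72-fold higher (1.36 to 2.21), while in OA it was 0.746-fold of control (0.541 to 1.02), an interval that takes in no change. CYP51A1 had 186, 162 and 93 counts and was 1.67-fold lower (1.30 to 2.18) in OA. In GENCODE 29 another gene on the same strand covers 79.4% of the exon bases of CYP51A1. The identifier of that other gene was not among the 58037 genes counted, so whether shared reads were left out of CYP51A1 is not known. Genes on the opposite strand cover up to 33.9% of the exon bases of ACAT2. The gene with that largest share was likewise not found by identifier among the genes counted.

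**Figure D2:**
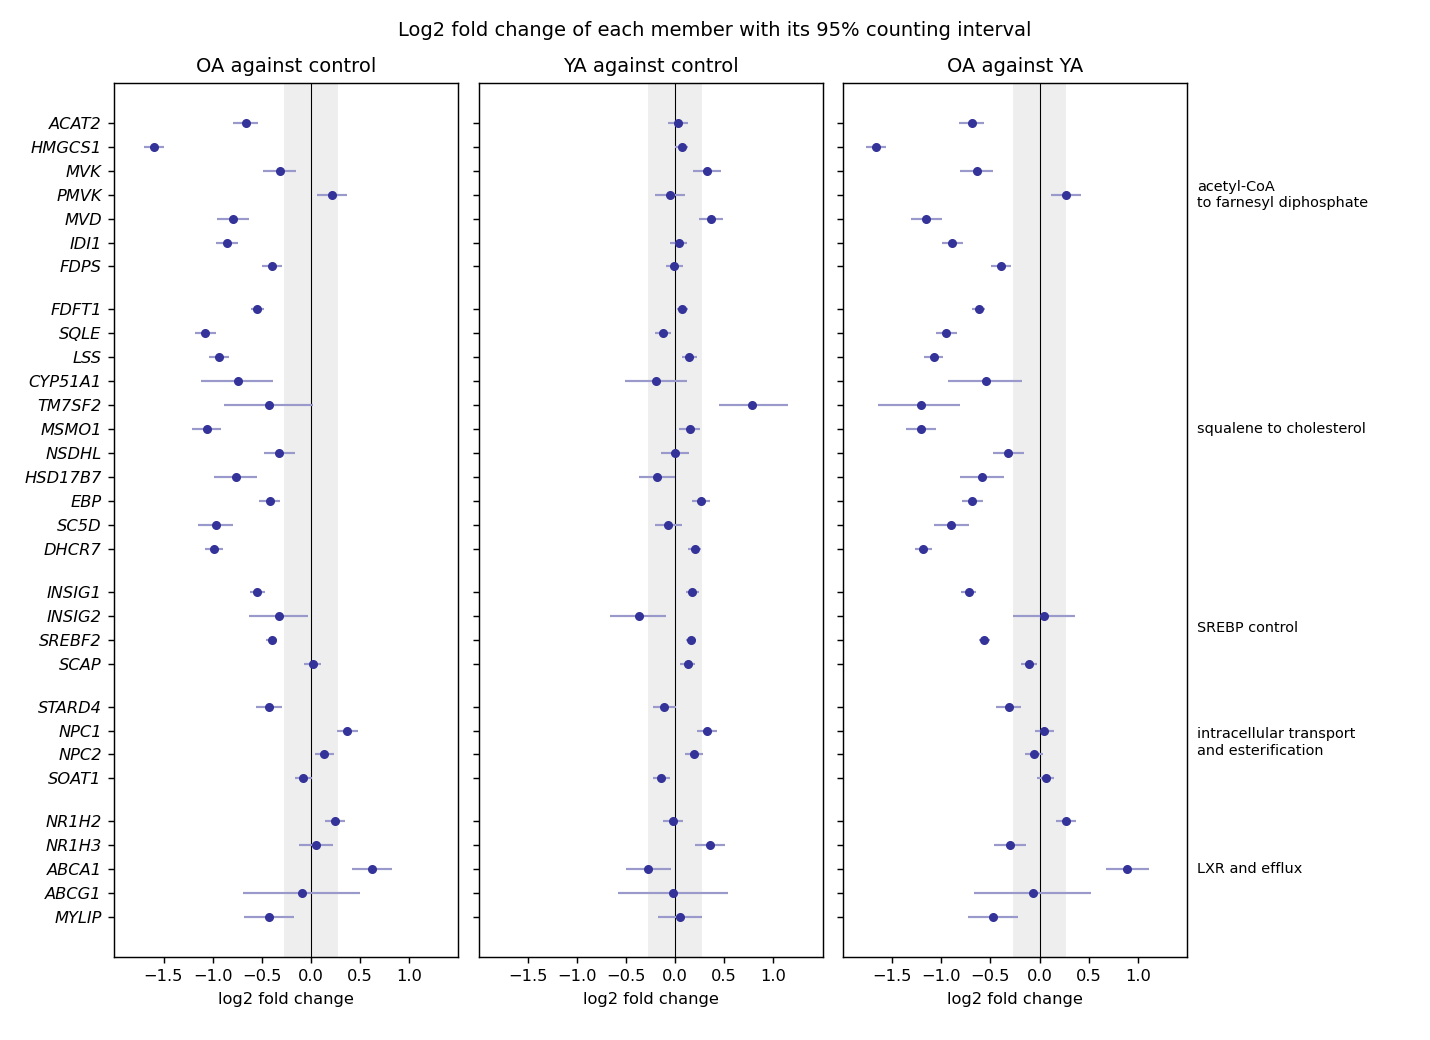
Log2 fold change of each gene (points) with its 95% counting interval (lines) in OA against control, YA against control and OA against YA; the grey band spans 1.2-fold in either direction. In OA against control 22 of 31 points lie to the left of the band and 2 to its right, against 2 and 6 in YA against control.

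Of the genes that control SREBP, 3 of 4 were called lower in OA, beside 21.5% of all genes. The interval lay wholly beyond 1.2-fold for 2 of the 4, SREBF2 and INSIG1, and not for INSIG2. SREBF2, which encodes SREBP-2, had 6120 counts in the control library, 6831 under YA and 3895 under OA, and was 1.32-fold lower (1.27 to 1.37) in OA than in control. INSIG1, which retains SCAP and is itself a target of SREBP, had 3553, 4000 and 2044 counts and was 1.46-fold lower (1.38 to 1.54) in OA. In both genes YA was above control by less than 1.2-fold. INSIG2, its paralog, had 238, 183 and 159 counts and was 1.29-fold lower (1.06 to 1.58) in YA and 1.26-fold lower (1.02 to 1.55) in OA. SCAP, the sterol-sensing escort, had 2555, 2781 and 2172 counts and was 1.01-fold of control (0.956 to 1.07) in OA. Per kilobase of merged exons INSIG1 had 917 normalised counts in control and INSIG2 had 56.8.

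The transport genes were mixed. STARD4, a carrier of cholesterol between membranes and a target of SREBP-2, had 1263 counts in the control library, 1167 under YA and 789 under OA, and was 1.34-fold lower (1.23 to 1.47) in OA than in control. NPC1, the lysosomal membrane protein that releases lipoprotein-derived cholesterol, had 1460, 1821 and 1587 counts. It was above control with both secretomes, 1.25-fold higher (1.17 to 1.34) in YA and 1.29-fold higher (1.21 to 1.39) in OA. NPC2, its soluble partner, was 1.14-fold of control (1.07 to 1.22) in YA and 1.10-fold of control (1.03 to 1.18) in OA. SOAT1, which esterifies cholesterol for storage, had 2405, 2175 and 1912 counts and was 0.947-fold of control (0.891 to 1.01) in OA.

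In the LXR and efflux group no common direction was seen, with medians of 0.05 in OA and -0.02 in YA on the log2 scale. ABCA1, the exporter of cholesterol to apolipoproteins, had 348 counts in the control library, 287 under YA and 449 under OA. It was 1.54-fold higher (1.33 to 1.77) in OA than in control and 1.21-fold lower (1.03 to 1.42) in YA, and was the member furthest above YA in OA. ABCG1, another exporter under LXR, had 57, 56 and 45 counts and was 0.942-fold of control (0.622 to 1.41) in OA, so no difference was detectable at this depth. MYLIP, an LXR-induced ubiquitin ligase that lowers lipoprotein receptors, had 326, 336 and 204 counts and was 1.34-fold lower (1.12 to 1.61) in OA. Thus of the LXR targets in OA, ABCA1 was called higher, MYLIP lower and ABCG1 neither. The interval lay wholly beyond 1.2-fold for ABCA1 alone. Of the receptors, NR1H2 (LXR-beta) was 1.18-fold of control (1.10 to 1.27) in OA. NR1H3 (LXR-alpha) was 1.28-fold higher (1.15 to 1.42) in YA and 1.04-fold of control (0.918 to 1.17) in OA.

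In YA against control 6 of 31 members were called higher and 2 lower, beside 17.4% and 16.4% of all genes. The share called higher, 19.4%, was near that background. The 6 were MVK, MVD, TM7SF2, EBP, NPC1 and NR1H3, and the 2 were INSIG2 and ABCA1. The interval lay wholly beyond 1.2-fold for TM7SF2 alone, beside 6.03% of all genes for higher calls, and for no lower member, beside 4.44%. The median log2 fold change was 0.05 over the 31 members and -0.02 over all genes.

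Set directly against each other, OA was lower than YA for 22 members and higher for 3, beside 23.0% and 21.5% of all genes. The interval lay wholly beyond 1.2-fold for 17 lower members and 1 higher, beside 10.0% and 9.03%. For the 18 synthesis enzymes the log2 fold changes had a median of -0.79, and 17 were lower, from NSDHL, 1.25-fold lower (1.12 to 1.39), to HMGCS1, 3.17-fold lower (2.96 to 3.39). DHCR7 was 2.27-fold lower (2.14 to 2.42), MSMO1 2.31-fold lower (2.08 to 2.56) and MVD 2.22-fold lower (2.00 to 2.48). The 3 higher in OA were ABCA1, 1.85-fold higher (1.60 to 2.16), PMVK, with a log2 fold change of 0.27, and NR1H2, with 0.27, and the calls of PMVK and NR1H2 were lost under TMM or total-count scaling. The comparisons share libraries, so they are not independent of each other. By normalised count OA was the lowest of the 3 libraries for 22 of 31 members (71.0%) and for 17 of 18 enzymes (94.4%), beside 36.1% of all genes tested.

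**Figure D3:**
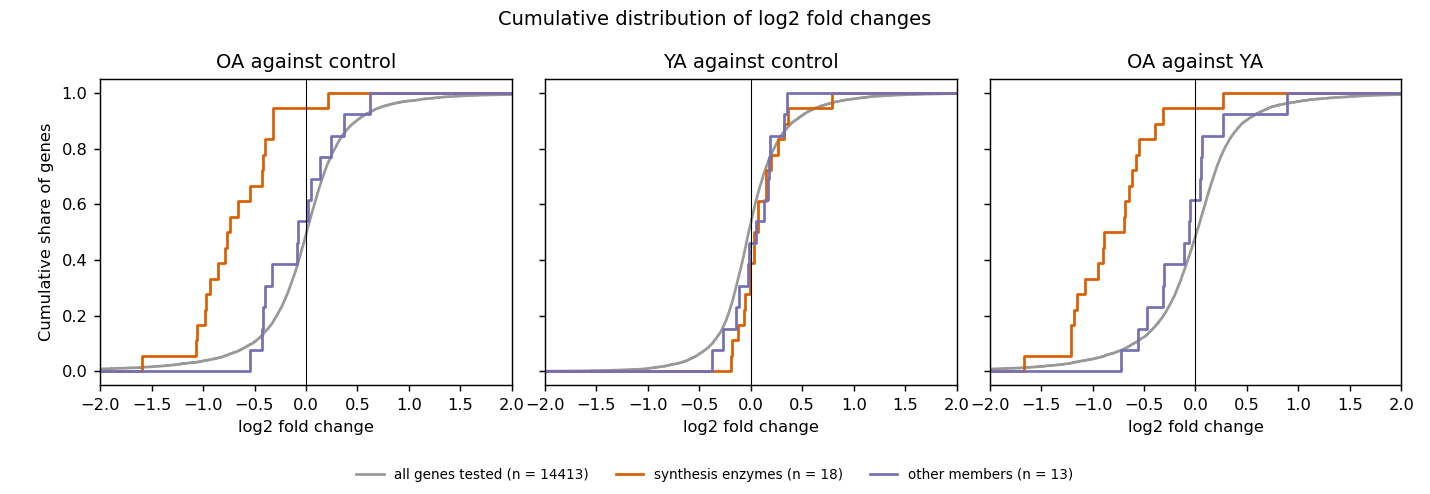
Cumulative share of genes (vertical axis) by log2 fold change (horizontal axis) for all 14413 genes tested, the 18 synthesis enzymes and the other 13 members, in the 3 comparisons. The curve of the enzymes is shifted to the left of all genes in OA against control and in OA against YA, with medians of -0.75 and -0.79, while in YA against control its median is 0.05.

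Levels between genes were compared per kilobase of merged exons. In control the highest were INSIG1 at 917, FDFT1 at 906, SREBF2 at 763, HMGCS1 at 754 and DHCR7 at 751 normalised counts per kilobase, and the lowest were ABCG1 at 8.77, ABCA1 at 28.9 and TM7SF2 at 30.1. In OA HMGCS1 stood at 249 and DHCR7 at 379, while PMVK stood at 551 in control and 640 in OA.

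Related genes were taken from 5 further lists, whose calls in OA against control stand beside 21.1% of all genes higher and 21.5% lower. The 12 genes of the isoprenoid branches, which use farnesyl diphosphate for prenylation, dolichol and ubiquinone, stood at a median of 0.02 on the log2 scale in OA against control, with none higher and 2 lower (16.7%), and no interval wholly beyond 1.2-fold. Among 10 genes of SREBP processing and sterol-regulated degradation 2 were higher (20%) and 1 lower (10%) in OA, with a median of 0.10. The lower gene was TMEM97, a sterol-regulated binding partner of NPC1, which had 1318 counts in the control library, 1128 under YA and 793 under OA, and was 1.39-fold lower (1.28 to 1.53) in OA. SREBF1, which encodes SREBP-1, had 6365, 7549 and 5513 counts and was 1.03-fold of control (0.995 to 1.07) in OA and 1.19-fold of control (1.15 to 1.23) in YA.

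Of 22 genes of cholesterol trafficking, storage and oxysterols 16 passed the count minimum, and 2 were higher (12.5%) and 4 lower (25%) in OA than in control. The share lower was near that of all genes, and the interval lay wholly beyond 1.2-fold for 2 higher genes and 1 lower gene, which are named here. GRAMD1B, which moves cholesterol from the plasma membrane to the endoplasmic reticulum, had 2104 counts in the control library, 2944 under YA and 4052 under OA. It was 2.29-fold higher (2.18 to 2.42) in OA and 1.40-fold higher (1.33 to 1.48) in YA. NCEH1, a hydrolase of cholesterol esters, had 376, 360 and 482 counts and was 1.53-fold higher (1.33 to 1.75) in OA. LIPA, the lysosomal lipase that frees cholesterol from lipoproteins, had 1714, 1539 and 905 counts and was 1.59-fold lower (1.47 to 1.73). Of 8 other LXR partners and targets 7 passed the minimum, with 1 higher (14.3%) and 2 lower (28.6%) in OA, and none with its interval wholly beyond 1.2-fold.

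For the 16 genes of fatty acid synthesis under SREBP-1 the median log2 fold change was -0.25 in OA and 0.14 in YA against control. In OA 8 were lower (50%) and 1 higher (6.25%), and 7 of the lower ones had an interval wholly beyond 1.2-fold. ACSS2, which makes acetyl-CoA from acetate, had 2080 counts in the control library, 2349 under YA and 608 under OA and was 2.87-fold lower (2.62 to 3.15) in OA. ELOVL6, a fatty acid elongase, had 2390, 2130 and 1252 counts and a log2 fold change of -0.68 in OA. LPIN1, a phosphatidate phosphatase, had 2350, 2438 and 1325 counts and was 1.49-fold lower (1.39 to 1.59). MID1IP1, an activator of acetyl-CoA carboxylase, had 601, 810 and 688 counts, with log2 fold changes of 0.45 in OA and 0.43 in YA.

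**Figure D4:**
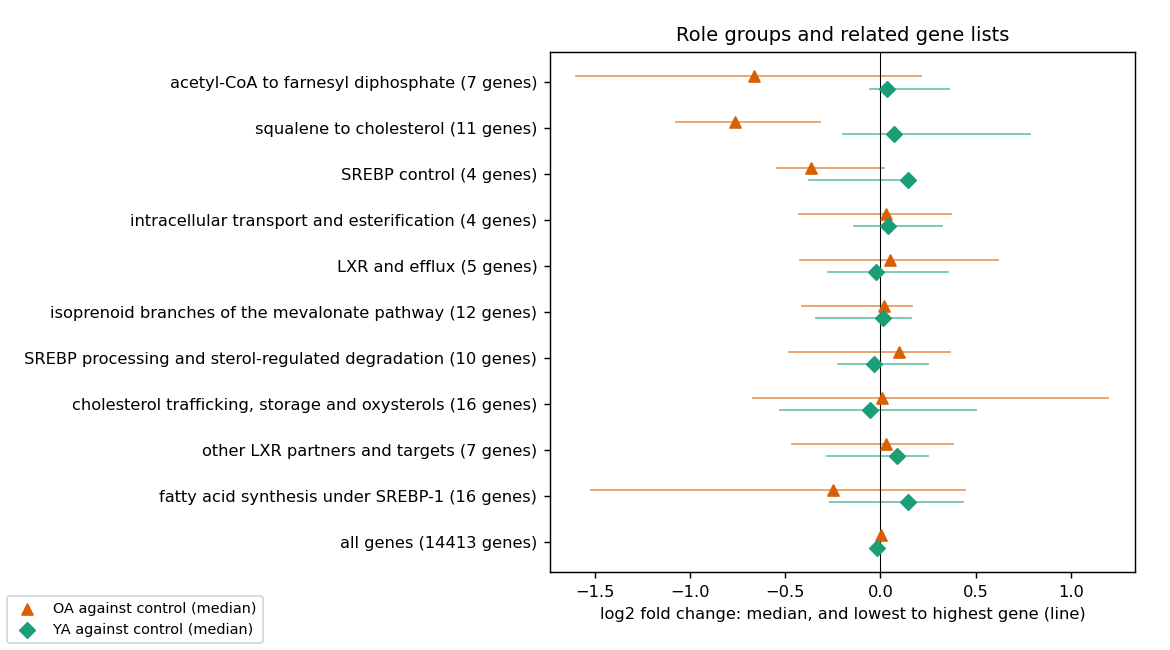
Median log2 fold change (symbols) and the range from the lowest to the highest gene (lines) for the role groups of the 31 members, 5 related lists and, as medians only, all genes tested, in OA against control (triangles) and in YA against control (diamonds). The medians of the enzyme groups lie at -0.66 and -0.76 in OA and that of fatty acid synthesis at -0.25, while the isoprenoid branches lie at 0.02.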

How the data were processed

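Poly(A) libraries of A375 cells (Agilent SureSelect, Illumina NovaSeq) were sequenced, 1 per group. The authors deposited raw read counts per gene for 58037 genes. The submitters' processing notes name STAR 2.5.1b, featureCounts, R 3.6.1 and hg38, and the study's methods name DESeq2. The annotation release and the use of strand are not given in the sources used here, so counts of overlapping, antisense or near-identical genes are uncertain. Normalised counts are counts over DESeq2 size factors (version 1.42.0, R 4.3.3), which were 1.06 (control), 1.06 (YA) and 0.891 (OA). Fold changes were taken as log2((a + 1)/(b + 1)), with a pseudocount of 1, over genes whose normalised counts averaged 20 or more. With 1 library per group no test was possible, and edgeR and DESeq2 tests were not run. Intervals (95% Clopper-Pearson, or Wilson for shares) cover counting error only, as each group had 1 library. PCR copies were not marked by molecular identifiers, so the intervals may understate even that error. The Clopper-Pearson intervals are for the ratio of normalised counts without the pseudocount. The script was tested on simulated data. Positions and merged exon lengths came from GENCODE 29 (GRCh38), which held 57388 of the identifiers without version. The members and lists were chosen with earlier results of these data known. Named genes outside the members were up to 3 higher and 3 lower per list in OA against control, by size, among those with the interval wholly beyond 1.2-fold. SREBF1 and the markers were named besides. Windows were printed for up to 6 members, other than on chromosome 8, with a core or, for efflux genes, an LXR element. Alternatives were edgeR 4.0.16 TMM and total-count scaling, a pseudocount of 5, no filter, a minimum of 100, thresholds of 1.5 and 2, the interval rule and the mean. Exclusion of genes with shared exons and a correction over deciles of transcript length and GC content were added after the data had been seen. Scripts ran in Python 3.11.15 (scipy 1.17.1). Exposure is 24 h in the series design, while the treatment protocol gives a range that starts there.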

Additional observations from a re-analysis of the deposited data

Results flagged for a closer look

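In 5 members the YA and OA libraries lay past 1.2-fold on opposite sides of the shared control library. This was 16.1% of the 31 members, beside 5.25% of the 14413 genes tested. None of the 5 had its interval wholly beyond 1.2-fold in both comparisons. By that rule 92 of the genes tested (0.638%) lay on opposite sides of control. The interval lay wholly beyond 1.2-fold for MVD, EBP and ABCA1 in OA alone, for TM7SF2 in YA alone and for MVK in neither. The difference between the secretomes was not tested, as each had 1 library. On the log2 scale MVK was 0.32 in YA and -0.32 in OA, MVD 0.36 and -0.79, TM7SF2 0.78 and -0.42, and EBP 0.27 and -0.42. ABCA1 was the reverse, at -0.27 in YA and 0.62 in OA.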

How the results depend on the processing

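With 1 library per group there is no spread between replicates, and counting intervals understate the error of every value. No paired analysis was possible because no group had a second library. The 93 values of single members stayed within their counting intervals with a pseudocount of 5 and with TMM or total-count scaling, and no called value changed sign. Of the 6 counts of members past 1.2-fold, none moved by over 1.5 times without a filter, with a minimum of 100, with a pseudocount of 5 or without the 2 members that share over 25% of their exon bases with another gene (ACAT2 and CYP51A1). The members higher in OA against YA went from 3 to 1 with TMM or total-count scaling, the correction for transcript length and GC content, and the interval rule. Those lower in YA against control went from 2 to 1 under that correction and to 0 under the interval rule, and those higher went from 6 to 1 under the interval rule. A stricter threshold gives fewer calls by its construction. At 1.5-fold, 1 was higher and 11 lower in OA against control, 1 higher and 0 lower in YA against control, and 1 higher and 14 lower in OA against YA. In the same order, a threshold of 2 left 0 and 3, 0 and 0, and 0 and 6. Of all 14413 genes tested, a threshold of 2 left 412 higher and 535 lower when OA was set beside control. With YA beside control 310 were higher and 140 lower, and with OA beside YA 438 were higher and 639 lower. A background at 1.5-fold is not given here, so the member counts at 1.5-fold stand without one. Of 21 medians, that of SREBP control in YA against control moved from 0.14 to 0.064 under the correction and to 0.023 as a mean, and in OA against YA from -0.34 to -0.247 under the correction. The cause was not tested.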

Other observations

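Annotated pseudogenes of members were counted too. HSD17B7P2 had 29 counts in the control library, 29 under YA and 4 under OA, CYP51A1P1 had 14, 13 and 3, and CYP51A1P2 had 18, 18 and 16. These are raw counts, and reads of near-identical copies cannot be assigned with certainty. STARD4-AS1, annotated antisense to STARD4, had 46, 85 and 71 counts. The lipoprotein lipase gene LPL, listed here as an adipocyte marker, had 353, 583 and 30, and the fibroblast marker DCN had 13, 138 and 24. Their part in the results for cholesterol genes was not tested.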
